A study of Homo sapiens with 2 samples.

Results

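The genes of polyamine metabolism were examined in C4-2B cells that received vehicle or (R)-9b, a small-molecule inhibitor of the tyrosine kinase ACK1 (TNK2). The set was chosen by gene name and holds 10 genes of the 60671 in the gene count table. ODC1, AMD1, SRM and SMS make polyamines, SAT1, SMOX and PAOX break them down, and AZIN1, OAZ1 and OAZ2 control the first enzyme. All 10 were found, each under 1 identifier, and all 10 had at least 10 counts over both libraries. C4-2B is an established human cell line that the study uses as a model of castration-resistant prostate cancer (CRPC), and both conditions share the line and a medium with fetal bovine serum and antibiotics, and no genetic change is labelled. The treated cells received 1 µM (R)-9b, also labelled dz67, overnight, whereas the other cells are labelled only as vehicle treated. Each condition was represented by 1 bulk RNA sequencing library made from poly-A selected RNA, so no spread between replicates could be measured, and no test of the treatment was possible. In bulk RNA, fewer expressing cells and less RNA per cell cannot be told apart.

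The vehicle library held 65207444 counts and the (R)-9b library held 57653965. Mitochondrially encoded genes took 1.49% of the counts in vehicle and 9.54% in (R)-9b. With these genes left out of the scaling, the 10 ratios below stayed within their counting intervals. The labels call the line a breast cancer, so the cell type was checked with marker lists. All 9 prostate epithelial markers, among them KLK3 and HOXB13, were present, at 231 to 2202 CPM (counts scaled to a library of 1000000) in the vehicle library and 330 to 5273 CPM in the treated one, and they summed to 5575 and 10158 CPM. Of these 9, 3 were higher than 1.5-fold, among them KLK3 and KLK2, which encode kallikreins of the prostate secretion. The 6 breast epithelial markers summed to 1.88 and 2.04 CPM, with ESR1 at 2 counts in each library and SCGB2A2 at 0. The 8 leukocyte, stromal and endothelial markers summed to 28.9 and 44.0 CPM, with PTPRC at 0, and COL1A1 and VWF gave nearly all of this sum. The part of these shifts in the results was not tested.

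Putrescine, spermidine and spermine are small, positively charged molecules that bind nucleic acids and are needed for growth. ODC1 makes putrescine from ornithine, AMD1 provides the aminopropyl donor from S-adenosylmethionine, and the synthases SRM and SMS use that donor to make spermidine and then spermine. SAT1 acetylates spermidine and spermine so that they can be exported or oxidised by PAOX, while SMOX oxidises spermine directly. Antizymes, encoded by OAZ1 and OAZ2, bind ODC1 and send it to the proteasome, and the antizyme inhibitor encoded by AZIN1 binds antizyme in place of ODC1. The prostate epithelium is known for an unusually high output of polyamines, which it secretes into the seminal fluid.

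A pair of sequence features controls these genes after transcription, and they are shown because gene counts do not register them directly. The first is the antizyme frameshift site, at which ribosomes slip forward by 1 base when polyamines are abundant, so that full-length antizyme is made. Capitals mark the last sense codon, the TGA stop codon of the first reading frame and the base that follows it. Both windows were read from the coding strand of the GENCODE 29 transcripts (GRCh38), for OAZ1 at chr19:2271416-2271470 (plus strand) and for OAZ2 at chr15:64691488-64691542 (minus strand), and both lie in coding exons.
OAZ1: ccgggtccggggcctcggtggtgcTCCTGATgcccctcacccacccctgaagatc
OAZ2: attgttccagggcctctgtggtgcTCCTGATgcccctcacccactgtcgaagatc

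The site stood in frame after 67 codons in OAZ1 and after 31 codons in OAZ2. Of the 55 bases of the window, 45 were identical between both genes (81.8%), and the longest identical run, which spans the site, was 27 bases. With positions counted from 1 at the 5′ end and the OAZ1 base written first, the substitutions were C1A, C2T, G3T, G5T, G9A, G17T, C45T, C46G, C47T and T48C. The reference coding models leave out 1 base, the T of the stop codon at position 4 of the site, to join the reading frames. In the annotation, 7 of 11 OAZ1 transcripts and 5 of 9 OAZ2 transcripts carry the bases of the site shown in capitals. Reading through the site is a translational event, so the counts below report antizyme mRNA and not the amount of frameshifted protein.

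The second feature is a cassette exon of SAT1. When it is included, the reading frame meets an early stop codon, and such transcripts are known as targets of nonsense-mediated decay. The exon is the fourth of 7 in transcript SAT1-209 and is absent from the 6-exon main transcript SAT1-204. It spans 110 bases at chrX:23784294-23784403 (GRCh38, plus strand), and the capitals mark the in-frame TAG, whose first base is base 12 of the exon.
SAT1 cassette exon: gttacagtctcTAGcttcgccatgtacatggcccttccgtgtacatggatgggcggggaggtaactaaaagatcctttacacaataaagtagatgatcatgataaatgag

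With the exon, 71 codons precede the stop, compared with 171 codons in SAT1-204. The levels of the transcripts that overlap this exon are given with the transcript estimates.

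The central comparison asked how the mRNA of each polyamine gene differed between the (R)-9b and vehicle libraries. Counts were scaled with the trimmed mean of M values (TMM) method and expressed as CPM, and the log2 ratio is (R)-9b over vehicle. The 95% intervals are exact for independent counts and cover counting error only, because each condition had 1 library. Reads copied by PCR or counted in pairs are not independent, so the intervals can be too narrow even for counting error. A gene was counted as higher or lower when its ratio was past 1.5-fold, which is 0.58 on the log2 scale. By this rule AMD1 was higher, SMOX and AZIN1 were lower, and the other 7 genes lay within 1.5-fold. Among all 23446 genes with at least 10 counts, 20.2% were higher and 18.0% were lower, beside 1 and 2 of the 10 polyamine genes. Neither count stands out from these shares. Most polyamine genes are abundant, and 9 of the 10 had at least 1000 counts over both libraries. Of the 10240 genes at that depth, 8.72% were higher and 10.0% were lower, beside 1 and 2 of these 9.

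**Figure D1:**
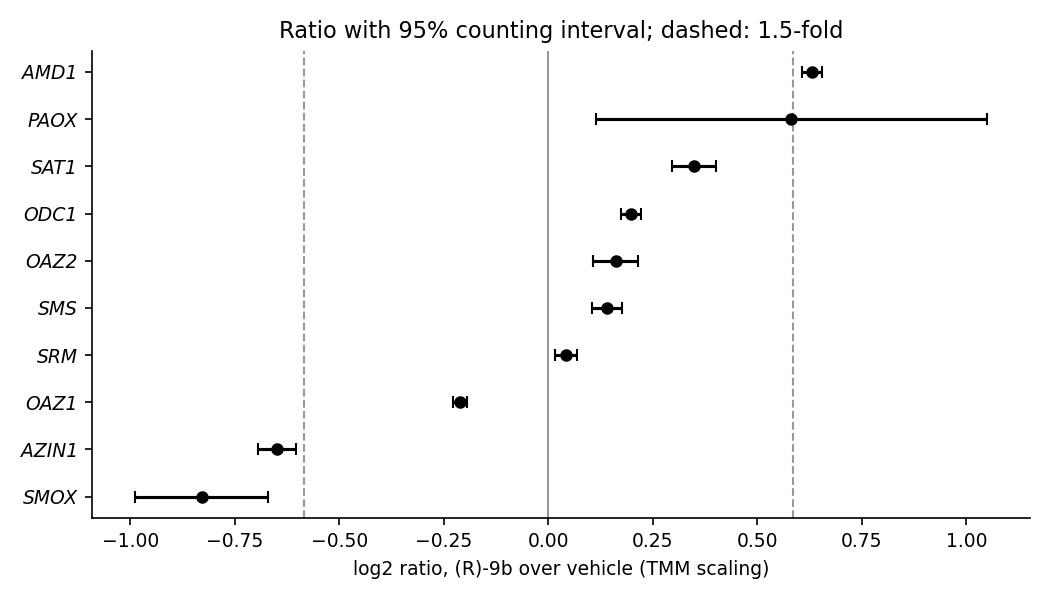
The log2 ratio of (R)-9b over vehicle (horizontal axis, TMM scaling) is plotted for each polyamine gene, with points for the ratio and bars for the 95% counting interval. AMD1 lies above the upper dashed line at 1.5-fold, SMOX and AZIN1 lie below the lower one, and PAOX has the widest bar.

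The interval lay wholly above 0 for 7 of the 10 genes, compared with 29.8% of all genes, and wholly below 0 for 3, compared with 31.1%. None included 0 with TMM scaling, but that of SRM did with total counts, DESeq2 size factors and transcript estimates, and that of PAOX did with halved counts. Of the 9 members with at least 1000 counts, 6 intervals lay above 0 and 3 below, beside 37.5% and 44.8% of all genes at that depth. At this depth, intervals of abundant genes are narrow, and lying outside 0 says that the libraries differed and not that the treatment was the source. The median log2 ratio of the 10 genes was 0.15, beside -0.0049 for all genes compared and -0.03 for genes with at least 1000 counts. The 10 genes together took 0.270% of the counts in vehicle and 0.270% in (R)-9b.

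**Figure D2:**
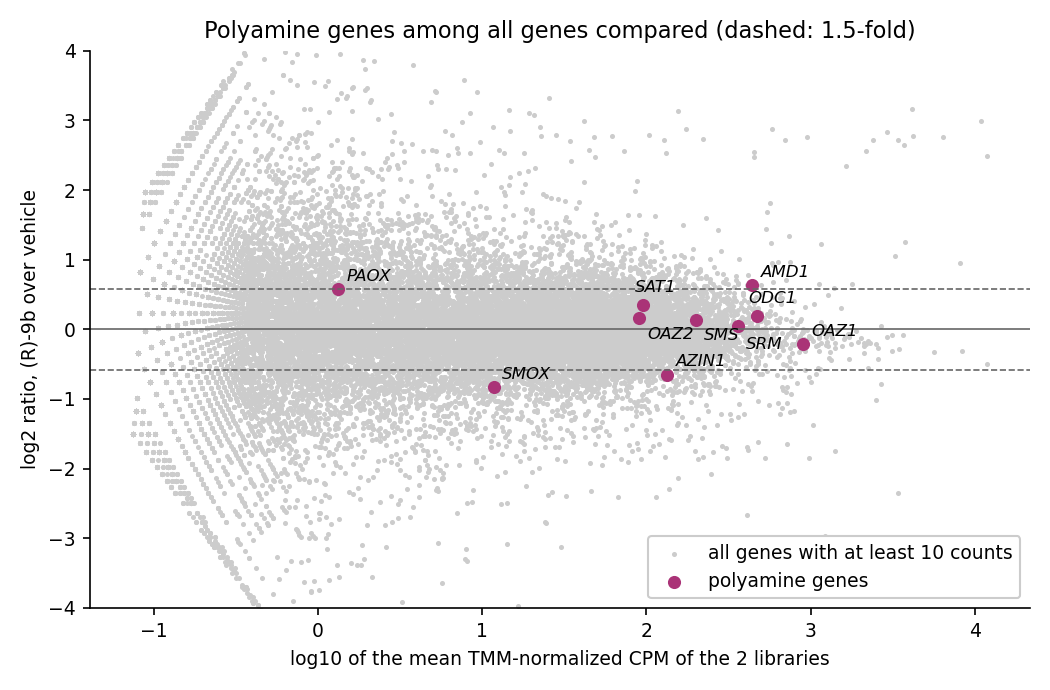
Each gene with at least 10 counts is a grey point, placed by the log10 of its mean CPM over both libraries (horizontal axis) and its log2 ratio (vertical axis, cut at the range shown, so that more extreme genes are not drawn). The polyamine genes, in purple, sit mostly among the abundant genes and inside the dashed 1.5-fold lines, with AMD1 just above and SMOX and AZIN1 below them.

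Among the genes of synthesis, the step that supplies the aminopropyl donor differed most. AMD1 (ENSG00000123505, chr6:110874770-110895713, plus strand), which encodes S-adenosylmethionine decarboxylase, had 23018 counts in vehicle and 30219 in (R)-9b. These correspond to 346 and 535 CPM, a log2 ratio of 0.63 (95% interval 0.61 to 0.66) or 1.55-fold. The gene was therefore only just past the 1.5-fold line, and scaling by total counts put it under that line at 0.57. Of the genes with at least 1000 counts, 7.60% had a higher ratio than AMD1.

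ODC1 (ENSG00000115758, chr2:10439968-10448504, minus strand), ornithine decarboxylase, had 29110 counts in vehicle and 28310 in (R)-9b. After scaling, this was 437 and 501 CPM, a log2 ratio of 0.20 (0.17 to 0.22). The raw count was thus lower and the scaled level higher in (R)-9b, because the (R)-9b library was the smaller one. The nearby non-coding gene ODC1-DT, named here after its values were seen, had a log2 ratio of 0.24 (0.09 to 0.40).

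The synthases lay close to equality. SRM (ENSG00000116649, chr1:11054584-11060024, minus strand), spermidine synthase, had 23701 and 20686 counts, or 356 and 366 CPM, and its log2 ratio was 0.04 (0.01 to 0.07). This direction depended on the scaling, since scaling by total counts gave -0.02. SMS (ENSG00000102172, chrX:21940573-21994835, plus strand), spermine synthase, had 12635 and 11807 counts, or 190 and 209 CPM, with a log2 ratio of 0.14 (0.10 to 0.18). Its 4 annotated pseudogenes held 1059 and 1049 counts, equal to 8.38% and 8.88% of the SMS count, and how reads were divided between SMS and these copies was not tested.

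Of the 3 genes of breakdown, SMOX was past 1.5-fold. SAT1 (ENSG00000130066, chrX:23783173-23786226, plus strand), the spermidine and spermine acetyltransferase, had 5581 counts in vehicle and 6028 in (R)-9b. Its level was 83.8 and 107 CPM, a log2 ratio of 0.35 (0.30 to 0.40), higher in (R)-9b and within 1.5-fold.

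SMOX (ENSG00000088826, chr20:4120980-4187747, plus strand), spermine oxidase, had the lowest ratio of the 10. It had 1006 counts in vehicle and 480 in (R)-9b, or 15.1 and 8.50 CPM. The log2 ratio was -0.83 (-0.99 to -0.67), which is 1.78-fold lower in (R)-9b, and 4.84% of genes with at least 1000 counts had a lower ratio. SMOX stayed past the 1.5-fold line under each of the 8 other ways of scaling or counting, although several of these repeat each other by construction.

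PAOX (ENSG00000148832, chr10:133379234-133391694, plus strand), the peroxisomal oxidase of acetylated polyamines, was the scarcest member. It had 71 counts in vehicle and 90 in (R)-9b, or 1.07 and 1.59 CPM. The log2 ratio of 0.58 (0.11 to 1.05), or 1.49-fold, lay just under the 1.5-fold line with an interval from near equality to over 2-fold. With all counts halved, the interval reached from -0.09 to 1.26 and included 0. The transcript estimates, which leave out PAOX-201, turned the direction, to -1.88 (-2.68 to -1.15). AL360181.3 overlaps 6.94% of the PAOX exon bases.

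Of the 3 regulators of ODC1, AZIN1 was past 1.5-fold. OAZ1 (ENSG00000104904, chr19:2269509-2273490, plus strand), the main antizyme gene, had 64238 counts in vehicle and 47028 in (R)-9b, the most of any member. Its level was 965 and 833 CPM, a log2 ratio of -0.21 (-0.23 to -0.19), lower in (R)-9b and within 1.5-fold. Its paralog OAZ2 (ENSG00000180304, chr15:64687573-64703281, minus strand) had 5645 and 5352 counts, or 84.8 and 94.8 CPM, and a log2 ratio of 0.16 (0.11 to 0.22). Both antizyme genes, which carry the frameshift site printed above, were thus within 1.5-fold. Other genes overlap 6.87% of the OAZ1 exon bases and 7.22% of those of OAZ2.

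AZIN1 (ENSG00000155096), the antizyme inhibitor, is a relative of ODC1 that lacks decarboxylase activity. Its annotated span runs from 102826357 to 102893864 on chromosome 8, minus strand. The gene had 10880 counts in vehicle and 5880 in (R)-9b, or 163 and 104 CPM. Its log2 ratio was -0.65 (-0.70 to -0.60), which is 1.57-fold lower, and 8.20% of genes with at least 1000 counts had a lower ratio. The antisense gene AZIN1-AS1 overlaps 5.35% of the AZIN1 exon bases and had 208 and 124 counts itself, few beside those of AZIN1, and whether the counting used strand is not given in the sources used here. From the transcript estimates the log2 ratio of AZIN1 was -0.52 (-0.67 to -0.38), inside 1.5-fold. Those estimates leave out AZIN1-201 and sum to only 9.62% and 10.4% of the gene counts.

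Levels can be compared between genes only per length. On the scale of RPKM, here the TMM-normalised CPM divided by the exon length in kilobases, OAZ1 was highest, with 281 in vehicle and 242 in (R)-9b. SRM followed with 188 and 193, then ODC1 with 147 and 169, and SMS with 87.9 and 96.8. AMD1 came next with 49.2 and 76.2, before SAT1 with 33.6 and 42.7 and AZIN1 with 25.4 and 16.2. The scarcest were OAZ2 with 11.1 and 12.4, SMOX with 5.13 and 2.89, and PAOX with 0.468 and 0.700. The order of the 10 genes was the same in both libraries. With 1 library per condition, whether neighbours in this order differ beyond the spread of samples could not be measured, and exon length is the union over all annotated transcripts, which lowers the value of genes with long or rarely used exons.

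**Figure D3:**
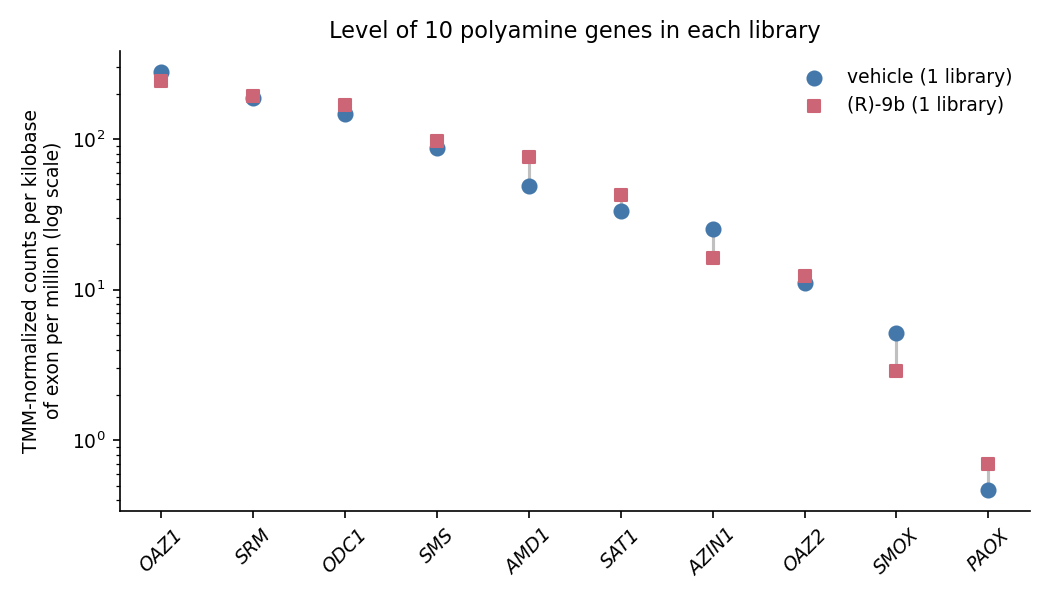
The level of each polyamine gene, as RPKM on a log axis, is shown for the vehicle library (blue circles) and the (R)-9b library (red squares), with a grey line joining both. OAZ1 was highest at 281 and 242 and PAOX lowest at 0.468 and 0.700, and the order of the genes was the same in both libraries.

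The balance between members was compared within each library for 8 pairs, some with opposed roles and others on the same side of the pathway. Such a ratio does not depend on the scaling of the libraries. The interval here is a normal approximation from the 4 counts and again covers counting error only. For each ODC1 count there were 2.21 OAZ1 counts in vehicle and 1.66 in (R)-9b, a difference in log2 ratio (OAZ1 minus ODC1) of -0.41 (-0.44 to -0.38). For AZIN1, the antagonist of antizyme, there were 0.374 and 0.208 counts per ODC1 count, a difference of -0.85 (-0.90 to -0.80). Both the antizyme gene and the inhibitor gene were thus lower relative to ODC1 in the (R)-9b library. OAZ2 was higher relative to OAZ1, with a difference of 0.37 (0.32 to 0.43).

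On the side of synthesis, AMD1 counts per ODC1 count were 0.791 in vehicle and 1.07 in (R)-9b, a difference of 0.43 (0.40 to 0.47). Per length, the AMD1 level was below that of ODC1 in both libraries. The synthases SMS and SRM differed by 0.10 (0.05 to 0.14), and SAT1 and ODC1 by 0.15 (0.09 to 0.21).

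The oxidase that acts on spermine directly was lower relative to the genes of the acetylation route. SMOX minus SAT1 was -1.18 (-1.34 to -1.01), which was 2.26-fold. SMOX counts per PAOX count were 14.2 in vehicle and 5.33 in (R)-9b, a difference of -1.41 (-1.89 to -0.93). The PAOX counts behind the latter are few, and the transcript estimates gave a difference of the opposite sign, 0.96 (0.17 to 1.75).

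A further 36 genes of the surrounding pathway, in 5 lists, were examined in the same manner. Of these, 32 had at least 10 counts, of which 5 were higher, 7 were lower and 20 were within 1.5-fold, beside 20.2% and 18.0% among all genes. Among those with at least 1000 counts, SLC3A2, ARG2 and SLC7A1 had the lowest ratios.

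Of the other polyamine enzymes and antizyme genes, 1 was higher and 2 were lower among 5, with a median log2 ratio of -0.22. OAZ3, the antizyme gene best known from testis, had 296 counts in vehicle and 474 in (R)-9b, a log2 ratio of 0.92 (0.70 to 1.13). The genes MRPL9 and TDRKH, among others, overlap 28.97% of its exon bases, and their own log2 ratios were -0.10 and -0.28. AOC1, a diamine oxidase, had 27 and 15 counts, and AGMAT, which makes putrescine from agmatine, had 13 and 4. Both of these ratios were lower than 1.5-fold, but their intervals included 0.

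Of the 9 genes of arginine and ornithine supply, OTC and SLC25A2 had 0 counts in both libraries, which allows up to 0.0451 and 0.0531 CPM. Of the remaining 7 genes, 1 was higher and 2 were lower, with a median of -0.06. SLC7A1, the cationic amino acid transporter that takes up arginine and ornithine, had 69601 counts in vehicle and 25796 in (R)-9b, a log2 ratio of -1.19 (-1.21 to -1.17), or 2.29-fold lower. ARG2, the mitochondrial arginase that yields ornithine, had 5831 and 2126 counts and a log2 ratio of -1.22 (-1.29 to -1.15). VTI1B overlaps 37.4% of the ARG2 exon bases. ARG1, the liver arginase, had 10 and 24 counts, a log2 ratio of 1.501 (0.38 to 2.73).

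The 9 transport genes showed the lowest ratio of the pathway. SLC3A2, the heavy chain shared by several amino acid transporters and linked to polyamine exchange, had 42642 counts in vehicle and 10862 in (R)-9b. Its log2 ratio was -1.74 (-1.77 to -1.70), or 3.33-fold lower. SLC22A3, an organic cation transporter, had 319 and 117 counts and a log2 ratio of -1.21 (-1.53 to -0.90). SLC47A1 with 17 and 26 counts was higher, with an interval that included 0. Among 7 genes with enough counts, 1 was thus higher and 3 were lower, with a median of 0.05. ATP13A4, with 8 and 0 counts, and SLC22A2, with 0 and 5, were under the minimum of 10 counts.

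Among 8 genes of S-adenosylmethionine supply and methionine salvage, the cycle that feeds AMD1, 1 was higher, none was lower, and the median was -0.09. The gene above 1.5-fold was MRI1, an isomerase of the salvage route, with 840 and 1342 counts and a log2 ratio of 0.91 (0.79 to 1.04), although other genes overlap 34.5% of its exon bases. Among 5 genes of the hypusine pathway, in which spermidine is used to modify the translation factor eIF5A, 1 was higher, none was lower, and the median was 0.03. DHPS, which carries out the first step of that modification, had 57 and 145 counts and a log2 ratio of 1.58 (1.13 to 2.05). WDR83 and a further gene overlap 41.8% of the DHPS exon bases, reads that overlap more than 1 gene were not counted, and WDR83 itself had a log2 ratio of 0.01.

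**Figure D4:**
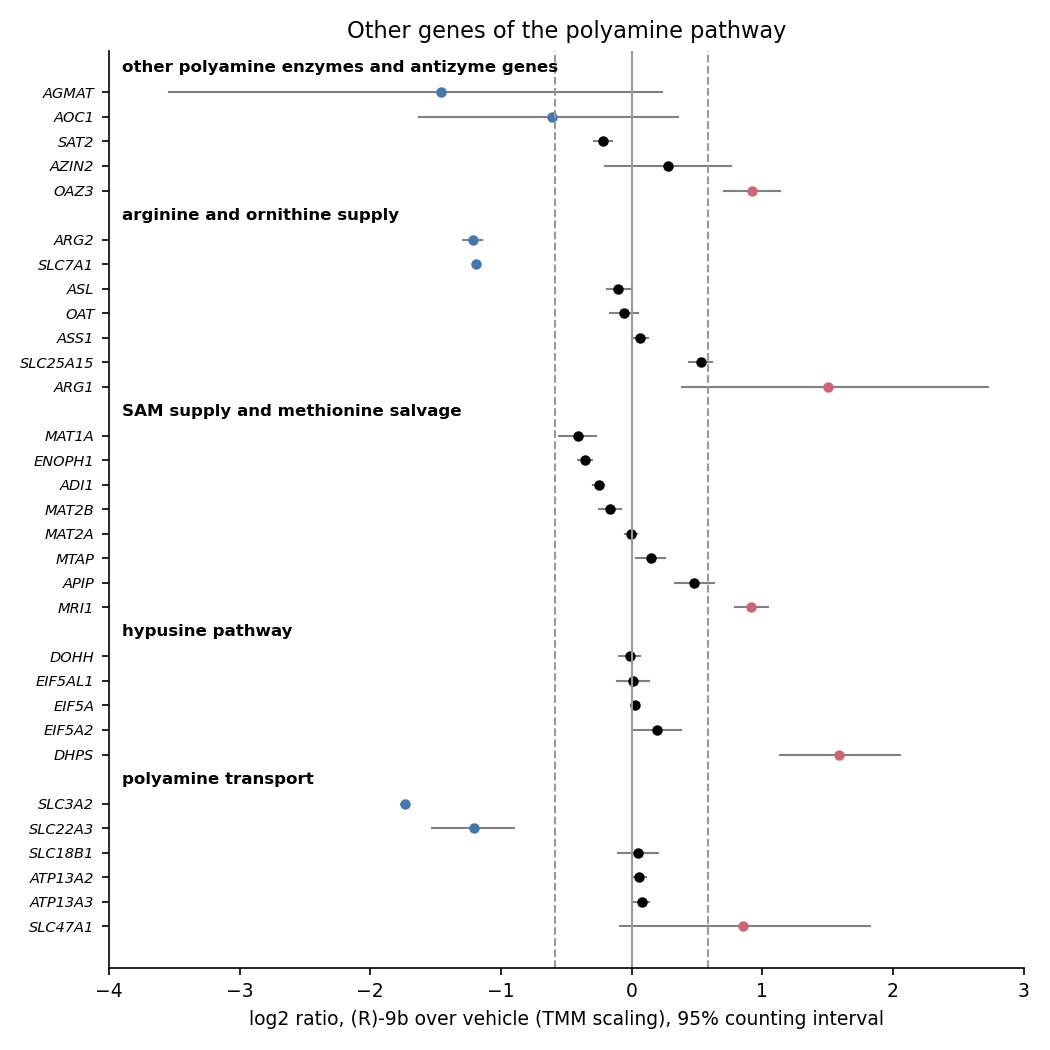
The log2 ratio of (R)-9b over vehicle (horizontal axis, TMM scaling) is shown for 31 of the 32 pathway genes with at least 10 counts in 5 lists, with points for the ratio, red when higher and blue when lower than 1.5-fold (dashed lines), and bars for 95% counting intervals. SLC3A2, SLC7A1, ARG2 and SLC22A3 lie well to the left with narrow to moderate bars, while AGMAT, AOC1 and SLC47A1 have bars that cross 0.

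The deposited transcript estimates were used to ask whether the gene ratios held for the main transcripts. For most members the estimates summed to 34.5% to 52.6% of the gene count, but to 22.8% and 21.3% for SMOX, 14.1% and 17.7% for OAZ2, 9.62% and 10.4% for AZIN1, and 117% and 21.7% for PAOX. SMOX-203, PAOX-201, AZIN1-201 and OAZ2-201 were not analysed here, so shares for these 4 genes are shares of the listed transcripts. Intervals on estimates leave out the error of assigning reads to transcripts.

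For AMD1, all 5 transcripts with at least 5% of the gene in either library were higher in (R)-9b. The main one, AMD1-203, had 5181 estimated counts in vehicle and 6047 in (R)-9b, and its share of the gene was 59.9% and 53.4%. AMD1-201 went from 211 to 955 estimated counts, or from 2.44% to 8.43% of the gene, with a log2 ratio of 2.43 (2.21 to 2.65). The remaining 3, AMD1-204, AMD1-205 and AMD1-206, had log2 ratios of 0.93, 0.68 and 0.32. The higher AMD1 level was therefore spread over several transcripts, among them AMD1-205 and AMD1-206, which are annotated as targets of nonsense-mediated decay.

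For SAT1, the main coding transcript SAT1-204 had 1853 and 1970 estimated counts, a share of 91.9% in vehicle and 87.5% in (R)-9b. The transcripts that overlap the cassette exon were each below 5% of the gene and are given although they fall outside the naming rule, after their values were seen. SAT1-209 had 86.5 estimated counts in vehicle and 24.2 in (R)-9b, or 4.29% and 1.07% of the gene, a log2 ratio of -1.59 (-2.30 to -0.92). SAT1-202, annotated as coding and with an exon that overlaps the cassette exon, went the other way, from 16.7 to 103 estimated counts. So did SAT1-207, which does not overlap it, from 18.9 to 102. SAT1-206, the third transcript that overlaps the cassette exon, was at 0 in both libraries. Summed over the 3 transcripts that overlap the cassette exon, the estimates were 103 in vehicle and 127 in (R)-9b, or 5.12% and 5.66% of the gene. This total was thus not lower in (R)-9b, and whether each of the 3 holds the whole exon was not tested. No count of reads across the exon junctions was analysed here.

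The lower level of SMOX was seen in its main listed transcripts. SMOX-205 had 123 and 71.6 estimated counts and SMOX-202 had 71.6 and 21.6. SMOX-201 had 24.9 and 0, while SMOX-212 had 0 and 8.92. For AZIN1, a single coding transcript, AZIN1-202, carried 95.3% and 95.7% of the estimates, with 998 counts in vehicle and 587 in (R)-9b.

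For PAOX, no transcript was above 0 in both libraries. In vehicle, PAOX-202 had 47.0 and PAOX-203 had 36.3 estimated counts. In (R)-9b, PAOX-206 had 16.2 and PAOX-204 had 3.29. The sum of 83.4 in vehicle and 19.5 in (R)-9b runs against the gene counts of 71 and 90, so the direction for PAOX differed between the gene and the transcript table.

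In the antizyme gene OAZ1, the 4 transcripts with at least 5% of the gene were all lower in (R)-9b, with log2 ratios from -0.39 for OAZ1-211 to -0.14 for OAZ1-209. The shares hardly moved, and the form with the largest share, OAZ1-208, annotated as a retained intron, held 41.8% in vehicle and 41.4% in (R)-9b. These shares do not measure how much OAZ1 RNA is coding. The coding model OAZ1-211 lacks 1 base of the frameshift site, which OAZ1-209 carries, and how this affects the assignment of reads was not tested. In OAZ2, OAZ2-207, one of several coding transcripts, went from 179 to 345 estimated counts. Its share went from 22.5% to 36.5% of the listed transcripts, with a log2 ratio of 1.20 (0.93 to 1.46). OAZ2-205, also annotated as coding, went the other way, with 158 and 115 estimated counts. OAZ2-209 had 343 and 362, OAZ2-204 had 76.2 and 55.5, and OAZ2-202 had 37.3 and 65.3. Of the named OAZ2 transcripts, OAZ2-207 and OAZ2-202 were past 1.5-fold.

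**Figure D5:**
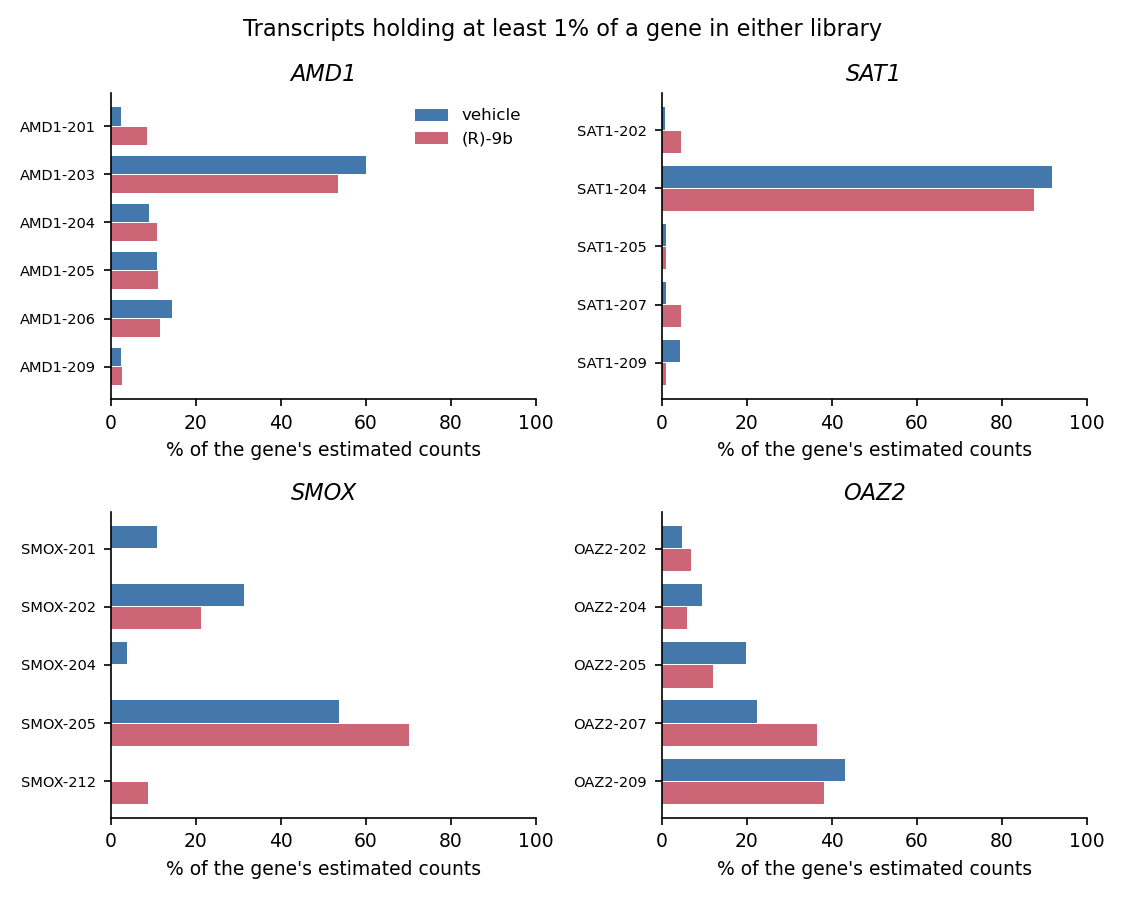
Bars give the share of the estimated counts of AMD1, SAT1, SMOX and OAZ2 (horizontal axis, percent of the listed transcripts of the gene) held by each transcript with at least 1% in either library, blue for vehicle and red for (R)-9b. AMD1-201 and OAZ2-207 took a larger share in (R)-9b (8.43% and 36.5%) than in vehicle (2.44% and 22.5%). SAT1-209 took a smaller share in (R)-9b (1.07% against 4.29%), while SAT1-202, which also overlaps the cassette exon, took a larger one (4.59% against 0.827%).

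ODC1, SRM and SMS kept their transcript makeup. ODC1-201 held 64.8% of the gene in vehicle and 66.1% in (R)-9b, and ODC1-202 held 35.1% and 33.8%. SRM-201 held 91.1% and 90.7%, with SRM-204 at 7.02% and 7.45%, and SMS-202 held 97.5% and 98.2%.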

How the data were processed

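C4-2B libraries of 2 conditions, 1 each, were grouped by the treatment in the sample labels. The authors aligned paired reads to hg38 with STAR (2.5.1a in the submitters' processing notes, another version in the methods) and counted uniquely aligned, unambiguous reads. The deposited gene counts are whole numbers without normalization, and featureCounts 1.4.6-p5 is named in the notes. The authors also deposited CPM and moderated log2 CPM of the genes, used here only as alternatives, and estimated counts per transcript, for which the notes name Salmon 0.8.2. The transcript CPM and log2 tables were not used.

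Repeated gene lines were dropped (60871 lines, 60671 genes). Counts were scaled by TMM (edgeR 4.0.16, R 4.3.3), with DESeq2 1.42.0 size factors among the alternatives. Exact Clopper-Pearson 95% intervals were computed in Python 3.11.15 with scipy 1.17.1, numpy 2.4.6 and pandas 2.3.3 for genes with at least 10 counts, and figures with matplotlib 3.10.9. A single library per condition allows no model of replicate spread, so no p-value is given. Tested on simulated libraries of 23395 compared genes, 95.9% of intervals held the true ratio. The simulated counts were independent, which is what the interval assumes, so this checked the calculation only. It cannot tell how well the intervals fit reads that are copied by PCR or counted in pairs. Counts from 1 to 20 were even for 72.2% of genes in vehicle and 70.3% in (R)-9b, as when both reads of a pair are counted, so halved counts were also tried. Exon lengths, overlaps and sequences came from GENCODE 29 (GRCh38).

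The members and lists were chosen with earlier results of these data known. The genes named were all 10 members, every gene of another pathway list past 1.5-fold with at least 10 counts, and transcripts with at least 5% of a member's estimates. Some genes that entered the counts are not reported here by name.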

Additional observations from a re-analysis of the deposited data

How the results depend on the processing

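The lower level of SMOX held past 1.5-fold under all 8 alternative scalings and count types, and AZIN1 under 7 of them, the exception being the transcript estimates (-0.52). These 8 were not independent checks. Deposited CPM equals the scaling by total counts, moderated log2 CPM nearly does, and halving the counts cannot change a ratio, only its interval. AMD1 kept its direction under all 8, with log2 ratios from 0.57 to 0.67, but the number of members higher than 1.5-fold was 0 instead of 1 with total counts, deposited CPM and moderated log2 CPM, and 2 with upper quartile scaling, where PAOX joined at 0.62. At 2-fold, 0 members were higher and 0 were lower. With transcript estimates 2 were again lower, namely SMOX and PAOX. The median log2 ratio of 0.15 became 0.090 with total counts, deposited CPM and moderated log2 CPM, and 0.088 with transcript estimates. The log2 ratio of SRM reversed to -0.019 with total counts, deposited CPM and moderated log2 CPM, which leave out the TMM factors and shift all genes by 0.06. With transcript estimates PAOX reversed to -1.88 and SMOX minus PAOX to 0.96. For these reversals the cause was not tested. The other pathway genes counted 5 higher and 7 lower with total counts, and 4 and 5 of 31 with transcript estimates. Minimum counts of 1 or 50 could not alter the members' counts, because even PAOX, the scarcest, had 71 and 90 counts. No paired analysis was possible because there was 1 library per condition. The depth limits PAOX, ARG1, AOC1, AGMAT and SLC47A1, whose ratios rest on few counts.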
